A study of Oryctolagus cuniculus with 3 samples.

Results

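Junction-sharing non-coding isoforms are assembled transcripts that use at least 1 splice junction of an annotated gene but differ from the annotated transcript elsewhere, and that the authors placed among long non-coding RNAs. They were taken as all transcripts with class code j in the deposited long non-coding table, 743 of 15335 transcripts or 4.85%, at 547 loci carrying 550 gene names. The RNA came from cumulus-oocyte complexes, an oocyte with its surrounding somatic cells, collected from the ovaries of female IRA rabbits (Oryctolagus cuniculus) after slaughter; the labels name the tissue as ovary. The study split 150 such animals, 35 days old at the start, over rooms with different ammonia in the air for 4 weeks. The library labelled CG stands for under 3 ppm NH3, LAC for 10 ppm and HAC for 30 ppm. Each group has 1 library. The number of animals that contributed to a library is not stated in the sources used here. No difference below has a replicate check, and none carries a p-value. All groups are named by their library's label.

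One gene can give rise to several RNAs when the splicing machinery joins exons in different ways, keeps an intron, or ends a transcript early. Such isoforms may lose the open reading frame of the messenger RNA, and many with an early stop codon are degraded by nonsense-mediated decay. Others stay in the nucleus, where retained introns hold back export. The oocyte stores RNA before meiosis resumes, and the cumulus cells around it supply metabolites through gap junctions, so a bulk library mixes the isoforms of a germ cell with those of its somatic partners. In such a library, fewer cells of a type and less RNA per cell cannot be told apart.

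The files of LAC and HAC hold the same gene table, 39681 identical rows, headed LAC in both. It was used once, as LAC, so comparisons with the rest of a gene were possible for LAC and CG and not for HAC. It was compared with long non-coding coverage at 8795 single-transcript loci with a coverage above 2 in HAC. The coverage labelled LAC gave that table's counts to within 5% for 97.35% of them, and the coverage labelled HAC for 4.15%. The valid reads given in different blocks of those files are exchanged between LAC and HAC, so the label of each remains uncertain, and every direction drawn from LAC or HAC assumes it. The files give 65715577 mapped reads for CG, 67595896 for LAC and 65106457 for HAC. They put the share of spliced reads at 22.01% for CG, 16.2% for LAC and 19.9% for HAC, and the exchange applies to these too.

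The isoforms were moderately long and mostly carried few exons. Their length ran from 200 to 17808 bases with a median of 1306 and quartiles of 707 and 2607. There were 170 with 2 exons, 220 with 3, 173 with 4 and 180 with 5 or more, up to 11. Every one had a strand, 422 on the plus and 321 on the minus strand, whereas 42.0% of all long non-coding transcripts had none. The locus row held a RefSeq messenger RNA for 536 of them, a RefSeq non-coding RNA alone for 199, and neither for 8. A typical isoform spanned 60.0% of its locus and was 1 of 4 transcripts assembled there, and 40 isoforms lay at rows that name several genes. The authors' coding-potential scores, which are lower for sequences less likely to encode protein, had a median of 0.09 and a highest value of 0.49 for CPC, and a median of -0.04 and a highest value of 0 for CNCI. The sharing was uneven between genes: 423 loci had 1 such isoform and 124 had several, up to 9 at LOC108178486.

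Most of these isoforms were present at low levels in every library. The median was 1.93 FPKM in CG, 1.77 FPKM in LAC and 2.12 FPKM in HAC, where FPKM is a fragment count scaled to transcript length and sequencing depth. The median number of reads behind an isoform was 118.5 in CG, 79.5 in LAC and 124.4 in HAC. At least 10 FPKM was reached by 58 isoforms in CG, 46 in LAC and 68 in HAC. Listed at 0 were 52 isoforms in CG (7.0%), 105 in LAC (14.1%) and 56 in HAC (7.54%), so the zeros were most frequent in LAC. LAC also had the most zeros among antisense long non-coding transcripts, with 6.57% in CG, 14.9% in LAC and 7.32% in HAC. Over all long non-coding transcripts the shares were 20.6%, 22.8% and 19.45%. How the reads of a locus are divided among overlapping isoforms is itself an estimate, and a value listed at 0 can be a failed one, so no fold is given against a 0. Of the 743, 718 had at least 1 FPKM in some library, 25 stayed under 1 FPKM throughout, and 2 of those were at 0 in all libraries. LAC alone was at 0 for 62 isoforms, CG alone for 18 and HAC alone for 15. With 1 library per group, an isoform was called higher or lower by size alone: its log2(FPKM + 1) had to differ by 1 or more and its level to reach 1 FPKM in the higher library.

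The most abundant isoforms held nearly all of the assembled RNA at some of their loci and a smaller part at others. LOC108178668, a non-coding RNA locus (NC_013689.1:12269875-12277835, OryCun2.0, plus strand), stood at 330.86 FPKM in CG, 893.86 FPKM in LAC and 417.72 FPKM in HAC. LAC stood above both others, 2.70-fold over CG (2.65 to 2.75, a 95% interval from the read numbers that covers counting error alone), and the isoform held 64.6% of the locus count in LAC and 64.1% in CG. With median-of-ratios factors over all long non-coding transcripts both differences fell short of the rule, at 0.98 for LAC against CG and -0.72 for HAC against LAC, and coverage gave -0.99 for HAC against LAC. IL1RAPL2, which encodes a receptor related to the interleukin-1 receptor family, carried an isoform of 4 exons and 1846 bases (NC_013690.1:53123377-53131196, plus strand). It measured 97.51 FPKM in CG, 19.78 FPKM in LAC and 138.99 FPKM in HAC. LAC was 4.93-fold lower than CG (4.66 to 5.22), while HAC and CG differed by less than the size rule. That isoform took 98.7% of the estimated count of its locus in LAC and 99.8% in CG, so the locus total, 41.3 CPM in LAC and 196 CPM in CG, moved with it. It spanned only 0.59% of the locus, and the rest of the locus had 0.55 CPM in LAC and 0.38 CPM in CG. The locus total therefore describes this short stretch and not the receptor gene as a whole. POLE4, a small subunit of DNA polymerase epsilon, followed the same order, with 68.21 FPKM in CG, 31.60 FPKM in LAC and 90.26 FPKM in HAC. PFN1, the actin-binding protein profilin, was at 52.06 FPKM in CG, 49.97 FPKM in LAC and 107.38 FPKM in HAC. Here HAC was the high library, 2.06-fold over CG (1.93 to 2.20). That difference, 1.03 on the log2(FPKM + 1) scale, lay at the edge of the rule and fell short of it under 4 of 5 other settings, at 0.94 to 0.98. Nearly all of the PFN1 locus count, 99.5% in LAC and 99.7% in CG, was assigned to this isoform and not to the other transcript there.

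Other abundant members were flatter or differed in HAC. Both isoforms of CALM3, a calmodulin gene, kept within the size rule in all comparisons, with 46.53, 32.09 and 30.23 FPKM for the shorter one and 46.03, 37.11 and 32.20 FPKM for the longer one in CG, LAC and HAC. They cover different stretches of the gene and together took nearly all of its count, 100% after rounding in both LAC and CG. EPDR1, an ependymin-related gene, stood at 39.22 FPKM in CG, 29.68 FPKM in LAC and 28.57 FPKM in HAC. The isoform at ATRIP, the partner of the checkpoint kinase ATR, measured 37.09 FPKM in CG, 41.61 FPKM in LAC and 14.28 FPKM in HAC, 2.60-fold lower in HAC than in CG (2.31 to 2.92). LOC103352291, a non-coding RNA locus, was at 22.76 FPKM in CG, 16.80 FPKM in LAC and 56.08 FPKM in HAC. LOC100338527 stood at 59.55 FPKM in CG, 37.80 FPKM in LAC and 28.05 FPKM in HAC, and passed the rule in HAC against CG alone, a call lost with a pseudocount of 5 (-0.97). At LOC108176694 the main isoform, of 3 exons and 894 bases, measured 261.64 FPKM in CG, 300.33 FPKM in LAC and 132.62 FPKM in HAC. A second isoform between the same ends, of 4 exons but only 780 bases, had 1.05, 5.52 and 93.59 FPKM. The second was 89.1-fold higher in HAC than in CG (63.9 to 128). Their sum stayed within the rule in every comparison, at 262.69 FPKM in CG, 305.85 FPKM in LAC and 226.21 FPKM in HAC.

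The comparison of LAC with CG asked how isoform levels differed with the lower ammonia exposure. Of 650 isoforms at 1 FPKM or more in either library, 76 were higher in LAC (11.7%) and 168 lower (25.8%). Over all long non-coding transcripts 13.6% were higher and 12.4% lower. The median difference was -0.10 for the isoforms and 0.32 for all long non-coding transcripts. With median-of-ratios factors over all long non-coding transcripts the isoform median was -0.44, and with coverage in place of FPKM it was -0.21. The excess of lower values was also seen in another multi-exon class, the antisense transcripts, with 31 higher and 92 lower of 343 (9.04% and 26.8%). Exon-overlapping transcripts had 28 higher and 39 lower of 302 (9.27% and 12.9%). Isoforms of messenger loci and of non-coding loci had similar shares lower, 25.1% of 478 and 29.1% of 165.

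The share lower in LAC differed with transcript length and exon number, a split chosen after values were seen. Cut at the quartiles of length, isoforms up to 707 bases were lower in LAC in 32.1% of 159 cases, and those up to 1306 bases in 35.8% of 165. Those up to 2607 bases were lower in 19.3% of 161 cases, and longer ones in 16.4% of 165. Other long non-coding transcripts with 2 or more exons ran from 33.3% through 27.9% and 19.0% to 8.0% over the same length bins. Of those with 1 exon, 10.4% were lower in the shortest bin and 22.8% higher. The file of LAC also gives the smallest share of spliced reads, and its part in these counts was not tested.

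**Figure D1:**
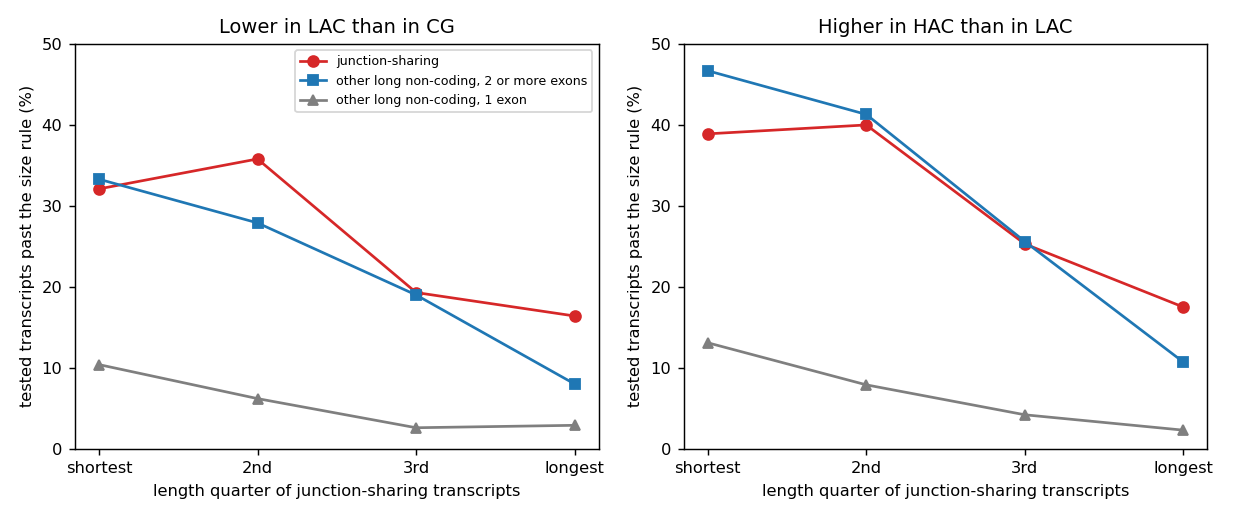
Share of tested transcripts past the size rule (y axis, percent) by length bin, cut at the quartiles of the junction-sharing isoforms (x axis), lower in LAC than in CG on the left and higher in HAC than in LAC on the right. Red points are junction-sharing isoforms, blue points other long non-coding transcripts with 2 or more exons, grey points those with 1 exon: the red points run from 32.1% to 16.4% lower in LAC, and the grey points there stay at or under 10.4%, while on the right the grey points reach 13.1%.

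The cell type markers differed between the libraries in the gene table. Among 21176 gene rows with at least 1 CPM in LAC or CG, 5.5% were higher and 12% lower in LAC by the size rule. Of 48 measured oocyte genes, 42 were lower and 0 higher in LAC than in CG, and they summed to 2149 CPM in LAC and 9645 CPM in CG, with the growth factor gene GDF9 at 59.8 CPM in LAC and 269 CPM in CG. Of 34 cumulus and granulosa genes, 3 were higher and 1 lower, with a sum of 20309 CPM in LAC and 21179 CPM in CG, and GJA1, the connexin of cumulus gap junctions, at 4771 CPM in LAC and 4978 CPM in CG. Of 23 theca and stroma genes, 11 were higher and 1 lower, summing to 1950 CPM in LAC and 1780 CPM in CG. Of 14 endothelial and blood genes, 1 was higher and 5 lower, summing to 42.4 CPM in LAC and 143 CPM in CG, and of 6 epithelial genes 2 were higher and 2 lower, summing to 36.4 CPM in LAC and 91.5 CPM in CG. Genes listed at 0 in both LAC and CG included SOHLH1 of the oocyte list, GREM1 of the cumulus list, the blood cell genes CD3E, MPO and S100A9, and the epithelial genes FOXJ1, KRT7, MUC1, OVGP1 and PAX8. The part of cell makeup in the isoform differences was not tested, and no gene values of HAC were used.

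More isoforms were higher than lower in HAC against CG, and so were more of all long non-coding transcripts. Higher ones made up 56.2% of the calls for the isoforms and 58.9% over all. Of 670 isoforms, 113 were higher in HAC (16.9%) and 88 lower (13.1%), where all long non-coding transcripts gave 10.1% higher and 7.06% lower. The median difference was 0.12 for the isoforms and 0.10 for all. With median-of-ratios factors over the junction-sharing transcripts, 103 were higher and 93 lower. At loci with several of these isoforms 21.1% were higher and 15.7% lower of 280, and where there was 1, 13.8% were higher and 11.3% lower of 390. This comparison shares the CG library with the one before.

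Between HAC and LAC, 202 of 664 isoforms were higher in HAC (30.4%) and 86 lower (12.95%), against 16.8% higher and 12.6% lower over all long non-coding transcripts. The median difference was 0.15, against -0.26 over all. With median-of-ratios factors over all long non-coding transcripts the isoform median was 0.42, and with coverage 0.24. By length, 38.9% of the shortest isoforms, up to 707 bases, and 17.5% of the longest, above 2607 bases, were higher in HAC. Other spliced long non-coding transcripts had 46.7% and 10.7% in those bins.

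**Figure D2:**
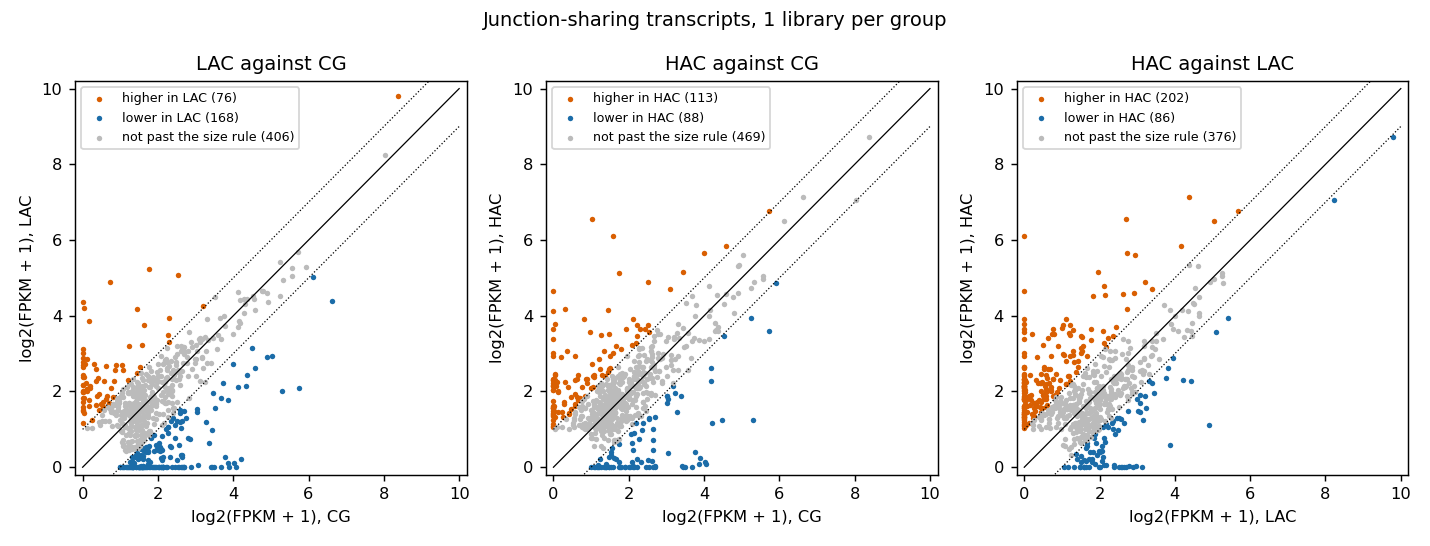
Level of each tested junction-sharing isoform in both libraries of a comparison, log2(FPKM + 1) on both axes, with the library named first on the y axis. Solid lines mark equal levels and dotted lines a difference of 1; orange points are called higher and blue points lower, 76 and 168 for LAC against CG, 113 and 88 for HAC against CG, and 202 and 86 for HAC against LAC.

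Across the libraries, 409 of 718 isoforms (57.0%) had a range of at least 1 on the log2 scale, compared with 41.1% of 11375 long non-coding transcripts. LAC was the library farthest from the mean of the others for 173 of the 409 (42.3%), HAC for 141 (34.5%) and CG for 95 (23.2%). Over all long non-coding transcripts with such a range the shares were 52.7% for LAC, 28.6% for HAC and 18.8% for CG. Among the isoforms LAC stood below the others 119 times and above 54 times. HAC stood above 98 times and below 43 times. Over all long non-coding transcripts LAC stood below 1067 times and above 1396 times, and HAC above 961 times and below 375 times. HAC thus leaned above in both sets, while LAC leaned below among the isoforms and above over all.

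The isoforms most often made up a minor part of their locus. Their median share of the locus's estimated count was 18.1% in LAC and 19.5% in CG. At messenger loci the median was 15.1% in LAC and 14.8% in CG, and at non-coding loci 35.4% in LAC and 36.9% in CG. At least 90% of the locus was taken by 74 isoforms in LAC and 72 in CG. At loci with at least 100 estimated counts in both libraries, 280 of 651 isoforms kept their share within 5 percentage points. The share was 25 points or more higher in LAC for 47 and lower for 62. Of these 109 isoforms, 86 sat at loci whose total count differed by less than 2-fold between LAC and CG.

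Of the called isoforms with a measured rest of locus, most differed while that rest stayed within the size rule. A rest within the rule was more frequent still over all isoforms. Across 650 isoforms, Spearman's rho between the isoform and its whole locus was 0.55, a sum that contains the isoform, and 0.04 once the isoform's own part was taken out. This describes transcripts of the same pair of libraries, which share depth and composition, and an error in dividing reads moves an isoform and its rest in opposite directions. Of the 76 isoforms higher in LAC, 71 had a rest of locus of at least 1 CPM: it was higher in LAC for 6, lower for 19 and within the size rule for 46. Of the 168 lower in LAC, 140 had such a rest, which was higher for 17, lower for 44 and within the rule for 79. Over all 568 isoforms with a measured rest, 7.57% of the rests were higher and 16.4% lower. Among all gene rows, 5.5% were higher and 12% lower in LAC.

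**Figure D3:**
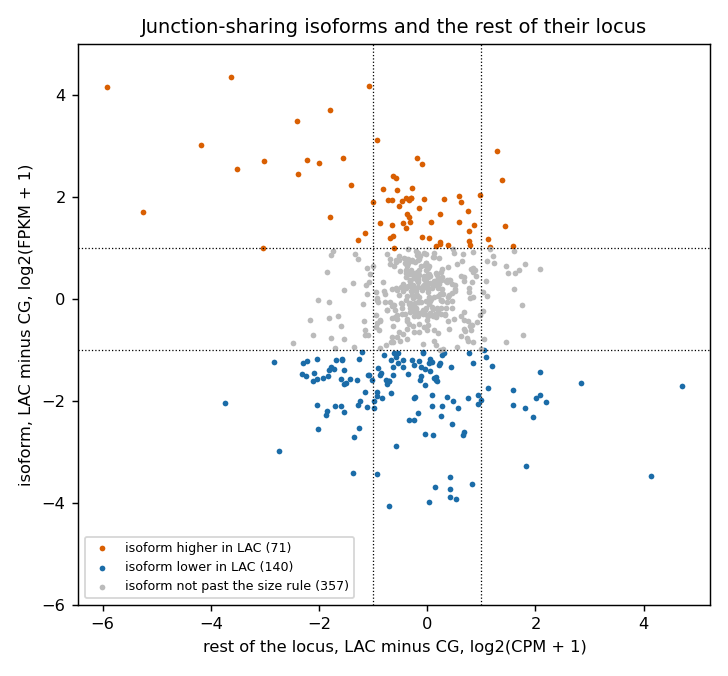
Difference of each isoform between LAC and CG on log2(FPKM + 1) (y axis) against the difference of the rest of its locus on log2(CPM + 1) (x axis), for 568 isoforms. Orange points are isoforms higher in LAC (71), blue points lower (140) and dotted lines the size rule: most called isoforms sit between the vertical lines, where the rest of the gene was within the rule. Most isoforms that were not called (grey points) lie there too.

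Single isoforms at genes of the respiratory chain lay far past the rule. Genes of the respiratory chain were listed by symbol prefix, which took in some assembly factors and left out others, such as LYRM7. Of 14 isoforms at 10 of these genes, 13 were tested in each comparison. In LAC against CG 1 was higher and 2 lower, and in HAC against CG 2 were higher and 3 lower. Over all isoforms the shares called were 11.7% higher and 25.8% lower in LAC, and 16.9% higher and 13.1% lower in HAC. The list's median difference was -0.13 in LAC against CG, where all 650 isoforms had -0.10, and -0.41 in HAC against CG, where all 670 had 0.12. SDHC and SDHD encode the membrane anchors of succinate dehydrogenase. The SDHC isoform was at 2.37 FPKM in CG, 36.86 FPKM in LAC and 33.71 FPKM in HAC, 15.6-fold higher in LAC than in CG (13.6 to 17.9). It took 79.5% of its locus in LAC and 4.27% in CG, while the locus total was 111 CPM in LAC and 130 CPM in CG. The SDHD isoform went the other way, with 15.37 FPKM in CG, 0.08 FPKM in LAC and 0.11 FPKM in HAC, at a locus with 46.2 CPM in LAC and 50.4 CPM in CG. Both exposed libraries thus lay on the same side of CG for each gene.

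The isoform of UQCRQ, a subunit of complex III, was listed at 0 in CG and LAC and had 24.34 FPKM in HAC. That of ATP5G2, a c subunit of ATP synthase, stood at 17.21 FPKM in CG, 20.36 FPKM in LAC and 3.86 FPKM in HAC, 4.46-fold lower in HAC than in CG (3.83 to 5.22). The isoform of NDUFA5, a complex I subunit, passed the rule in no comparison, with 16.43 FPKM in CG, 11.94 FPKM in LAC and 9.44 FPKM in HAC, and held 94.4% of its locus in LAC and 94.3% in CG. CYCS, the electron carrier cytochrome c, is named LOC100341175 in the files and was identified through RefSeq of assembly mOryCun1.1. It belongs to the stress response list, and its isoform had 2.28 FPKM in CG, was listed at 0 in LAC and had 5.32 FPKM in HAC. The locus total was 46.7 CPM in LAC and 4.05 CPM in CG, and the isoform's share of it 0.01% in LAC and 79.6% in CG, so isoform and locus differed in opposite directions.

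Among isoforms of mitochondrial ribosomal proteins, 4 of 9 tested were higher and 3 lower in LAC than in CG, with a median of 0.69, beside 11.7% higher and 25.8% lower over all isoforms. MRPL33, of the large mitochondrial subunit, held 5 of the 9, and its locus total was 27.0 CPM in LAC and 8.58 CPM in CG. Its isoform MSTRG.3060.2 measured 4.73 FPKM in CG, 8.23 FPKM in LAC and 28.69 FPKM in HAC, and MSTRG.3060.3 was above 0 in LAC alone, at 6.45 FPKM. A further isoform, MSTRG.3060.6, was listed at 0 in both LAC and HAC, against 3.40 FPKM in CG. The isoform of MRPL52 was at 5.41 FPKM in CG, 1.82 FPKM in LAC and 10.14 FPKM in HAC.

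Isoforms of cytosolic ribosomal protein and translation genes were few. Of 6 ribosomal protein isoforms at 4 genes, 0 were higher and 3 lower in LAC than in CG, and 1 was higher and 2 lower in HAC than in CG. Over all isoforms 11.7% were higher and 25.8% lower in the first comparison and 16.9% and 13.1% in the second, and the list's medians were -0.46 and -0.20. RPL34, a protein of the large subunit, had an isoform of 5 exons with 38.36 FPKM in CG, 3.04 FPKM in LAC and 1.38 FPKM in HAC. It was 12.6-fold lower in LAC (10.6 to 15.1) and 27.8-fold lower in HAC (21.7 to 36.1) than in CG. Its share of the locus was 7.01% in LAC and 77.5% in CG, at nearly equal totals of 55.8 CPM in LAC and 62.0 CPM in CG. RPL22L1 stood at 18.61 FPKM in CG, 20.75 FPKM in LAC and 12.91 FPKM in HAC, within the rule in every comparison. The single translation factor isoform, at EIF2S3, the gamma subunit of initiation factor eIF2, measured 19.58 FPKM in CG, 4.39 FPKM in LAC and 11.96 FPKM in HAC. It was 4.46-fold lower in LAC than in CG (4.13 to 4.82).

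FAU, which encodes ribosomal protein S30 fused to a ubiquitin-like peptide, had the widest span between HAC and LAC of the named isoforms on the log2(FPKM + 1) scale. It had 2.00 FPKM in CG, was listed at 0 in LAC and had 67.36 FPKM in HAC, 33.7-fold higher in HAC than in CG (24.7 to 47.2). It held 0% of the locus count in LAC and 1.68% in CG, at totals of 24.3 CPM in LAC and 62.0 CPM in CG.

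Genes of the splicing machinery were themselves hosts. Of 12 tested isoforms at splicing and RNA-binding protein genes, 2 were higher and 0 lower in LAC than in CG, and 3 were higher and 0 lower in HAC than in CG. Both counts of higher isoforms lie near the shares over all isoforms, 11.7% in LAC and 16.9% in HAC, while 25.8% and 13.1% were lower there. The medians were 0.19 and 0.18. TRA2A, a splicing regulator, had an isoform with 0.12 FPKM in CG, 13.58 FPKM in LAC and 0.50 FPKM in HAC. LAC alone was high, and the isoform took 45.8% of its locus in LAC and 0.20% in CG. The locus total was 44.7 CPM in LAC and 87.3 CPM in CG. RBM3, a cold-inducible RNA-binding protein, had an isoform with 1.33 FPKM in CG, 8.12 FPKM in LAC and 6.30 FPKM in HAC, beside a second one within the rule at 5.78, 6.48 and 4.18 FPKM. PRPF31, a protein of the spliceosome's tri-snRNP, had an isoform listed at 0 in CG and LAC and at 9.51 FPKM in HAC.

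SRSF2, a serine and arginine rich splicing factor known in human cells to regulate its own messenger through alternative splicing, had 4 isoforms. One was at 7.56 FPKM in CG, 9.55 FPKM in LAC and 25.21 FPKM in HAC, 3.33-fold higher in HAC than in CG (2.99 to 3.72). The other 3 passed the rule in no comparison, the most abundant having 12.52, 15.04 and 14.90 FPKM. Together the 4 took 93.9% of the locus in LAC and 92.4% in CG.

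Ubiquitin pathway hosts gave 2 higher and 2 lower of 11 isoforms in LAC against CG, and 3 higher and 1 lower of 13 in HAC against CG, with medians of -0.25 and 0.24. These counts lie near the shares over all isoforms, 11.7% higher and 25.8% lower in LAC and 16.9% and 13.1% in HAC. UBE2V2, a ubiquitin-conjugating enzyme variant, had an isoform with 0.03 FPKM in CG, 17.48 FPKM in LAC and 3.91 FPKM in HAC. It took 99.95% of the locus in LAC and 0.20% in CG, while the locus total was 69.7 CPM in LAC and 61.6 CPM in CG. RNF24, a RING finger protein, stood at 9.89 FPKM in CG, 0.99 FPKM in LAC and 11.83 FPKM in HAC, 9.99-fold lower in LAC than in CG (8.79 to 11.4). There the isoform was nearly the whole locus, 90.9% in LAC and 98.7% in CG, and the total was 8.32 CPM in LAC and 74.95 CPM in CG. UFM1, a ubiquitin-like modifier, had an isoform with 0.24 FPKM in CG, 5.59 FPKM in LAC and 17.08 FPKM in HAC, the highest in HAC.

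Of 11 tested isoforms at vesicle traffic genes, 1 was higher and 4 lower in LAC than in CG, and of 12 tested in HAC against CG, 1 was higher and 3 lower. Among all isoforms 11.7% were higher and 25.8% lower in LAC, and 16.9% and 13.1% in HAC. The list's medians were 0.06 and -0.16. RAB2A, a small GTPase of traffic between endoplasmic reticulum and Golgi, had an isoform with 0.64 FPKM in CG, 28.74 FPKM in LAC and 1.17 FPKM in HAC. It was 44.9-fold higher in LAC than in CG (34.0 to 60.5), with a share of 55.0% in LAC and 1.23% in CG at totals of 108 CPM in LAC and 105 CPM in CG. SEC61G, a subunit of the translocon through which proteins enter the endoplasmic reticulum, measured 52.23 FPKM in CG, 3.29 FPKM in LAC and 11.21 FPKM in HAC. Its isoform was 15.9-fold lower in LAC (12.7 to 20.1) and 4.66-fold lower in HAC (4.11 to 5.30) than in CG, although the locus total was 139 CPM in LAC and 113 CPM in CG. SNX24, a sorting nexin, was at 12.23 FPKM in CG, 3.71 FPKM in LAC and 9.73 FPKM in HAC for one isoform, and another was above 0 in HAC alone, at 3.10 FPKM.

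Several of the largest differences lay outside these groups. CCT7, a subunit of the cytosolic chaperonin, had an isoform with 17.45 FPKM in CG, 0.16 FPKM in LAC and 1.23 FPKM in HAC, 14.2-fold lower in HAC than in CG (10.5 to 19.6). SS18L2 was listed at 0 in both LAC and HAC, against 11.82 FPKM in CG. PROK2, which encodes the secreted ligand prokineticin, was listed at 0 in CG and LAC and had 11.48 FPKM in HAC. DNAJC10, a disulfide reductase of the endoplasmic reticulum, stood at 1.78 FPKM in CG, 0.16 FPKM in LAC and 10.46 FPKM in HAC. ABCA4, a retinoid transporter, measured 9.16 FPKM in CG, 0.56 FPKM in LAC and 9.69 FPKM in HAC, so that LAC alone was low. In C12H6orf52 the order was the same, with 4.44 FPKM in CG, 0.71 FPKM in LAC and 11.64 FPKM in HAC. Isoforms of SMIM8, at 7.68 FPKM, and of SEPT9, a septin gene, at 5.24 FPKM, were above 0 in LAC alone. LYRM7, known in humans as an assembly factor of complex III, was at 0.01 FPKM in CG, 5.85 FPKM in LAC and 0.03 FPKM in HAC.

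**Figure D4:**
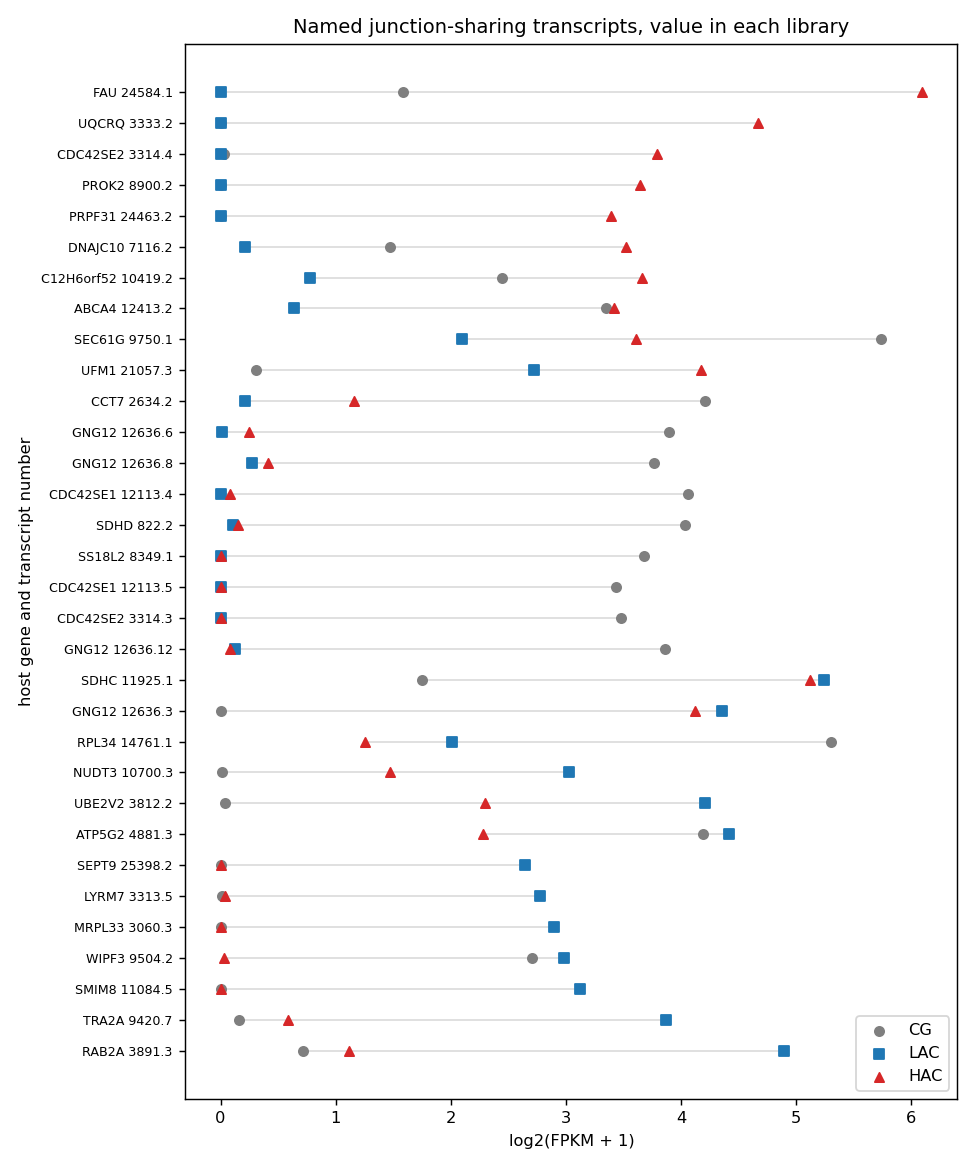
Level of the isoforms named for the largest differences, in each library on log2(FPKM + 1) (x axis), 1 row per isoform. Rows carry the host gene and transcript number (y axis). They are ordered by the difference between HAC and LAC, from the highest at the top. Grey circles are CG, blue squares LAC and red triangles HAC: FAU at the top has 67.36 FPKM in HAC and 0 in LAC, and RAB2A at the bottom 1.17 FPKM in HAC and 28.74 FPKM in LAC.

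At genes with several junction-sharing isoforms, the one with the highest level often differed between libraries. Of 124 such loci, 100 had a summed level of at least 1 FPKM in each library, and the same isoform was highest in all 3 libraries at 45 of them. At the other 55, CG alone had another highest isoform 17 times, LAC alone 20 times and HAC alone 14 times, and all 3 differed at 4. Isoforms of 1 locus were called in opposite directions at 14 loci in LAC against CG, at 19 in HAC against CG and at 9 in HAC against LAC. Of 76 loci with a called isoform in LAC against CG, the locus sum was also past the rule at 43. For HAC against CG it was past the rule at 21 of 66, and for HAC against LAC at 58 of 81. These counts were chosen after values were seen, and no share over other long non-coding loci stands beside them. The highest isoform can change without any call. At TYW5, with sums of 4.12 FPKM in CG, 4.19 FPKM in LAC and 5.69 FPKM in HAC, LAC had another highest isoform though none passed the rule. How far the division of reads among isoforms accounts for such changes was not tested.

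GNG12, a gamma subunit of heterotrimeric G proteins (NC_013681.1:98409928-98559185, plus strand), showed such an exchange with deep coverage. Isoforms MSTRG.12636.6, MSTRG.12636.8 and MSTRG.12636.12 had 13.89, 12.63 and 13.49 FPKM in CG, 0.01, 0.21 and 0.09 FPKM in LAC, and 0.19, 0.33 and 0.06 FPKM in HAC. Isoform MSTRG.12636.3 was listed at 0 in CG and had 19.48 FPKM in LAC and 16.42 FPKM in HAC. In LAC it took 91.5% of the locus. The 5 isoforms summed to 40.62 FPKM in CG, 21.12 FPKM in LAC and 19.02 FPKM in HAC, yet held 98.7% of the locus count in LAC and 100% in CG, and that count was 192 CPM in LAC and 211 CPM in CG. The isoform present in LAC and HAC has 8056 bases and starts farther upstream, while the 3 seen in CG have 4473 to 5069 bases, so the same count gives a lower FPKM in it.

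CDC42SE1 and CDC42SE2 encode small effectors of the GTPase CDC42. At CDC42SE1, 4 isoforms summed to 28.89 FPKM in CG, 1.24 FPKM in LAC and 0.06 FPKM in HAC, and the locus total was 79.4 CPM in LAC and 183 CPM in CG. At CDC42SE2, isoform MSTRG.3314.3 was listed at 0 in both LAC and HAC, against 10.17 FPKM in CG. By contrast, MSTRG.3314.4 had 0.02 FPKM in CG, 0 in LAC and 12.83 FPKM in HAC. Both have 6 exons. MSTRG.3314.4 starts at base 14472744 in place of 14472712, yet is the longer one, with 2968 bases against 2904. NUDT3, an enzyme that acts on inositol pyrophosphates, had a different main isoform in each library. They were MSTRG.10700.1 at 5.24 FPKM in CG, MSTRG.10700.3 at 7.16 FPKM in LAC and MSTRG.10700.2 at 3.10 FPKM in HAC. Their sum stayed within the rule, at 5.25 FPKM in CG, 7.43 FPKM in LAC and 5.52 FPKM in HAC.

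CHTOP, a factor of messenger RNA export, had 5 isoforms that summed to 15.07 FPKM in CG, 12.20 FPKM in LAC and 12.23 FPKM in HAC. One of them, MSTRG.12075.4, stood at 0.02 FPKM in CG, 0.11 FPKM in LAC and 4.40 FPKM in HAC. WIPF3, which encodes a WASP-interacting protein, had 6 isoforms with sums of 30.71 FPKM in CG, 30.90 FPKM in LAC and 22.50 FPKM in HAC, and its isoform MSTRG.9504.2 measured 5.51 FPKM in CG, 6.89 FPKM in LAC and 0.02 FPKM in HAC. At AUTS2, a regulator of transcription, MSTRG.6066.4 was the highest of 5 isoforms in every library, with 6.11 FPKM in CG, 10.86 FPKM in LAC and 6.19 FPKM in HAC. The 9 isoforms of LOC108178486 summed to 8.60 FPKM in CG, 18.00 FPKM in LAC and 7.93 FPKM in HAC. SPATA19 had 4 isoforms with sums of 4.18 FPKM in CG, 2.77 FPKM in LAC and 21.10 FPKM in HAC, and SMPD3, a neutral sphingomyelinase, had 3 isoforms with 5.51, 2.69 and 11.06 FPKM. C18H10orf11 had 4 isoforms with sums of 14.13 FPKM in CG, 2.19 FPKM in LAC and 18.97 FPKM in HAC, and its locus total was 6.38 CPM in LAC and 36.2 CPM in CG.

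**Figure D5:**
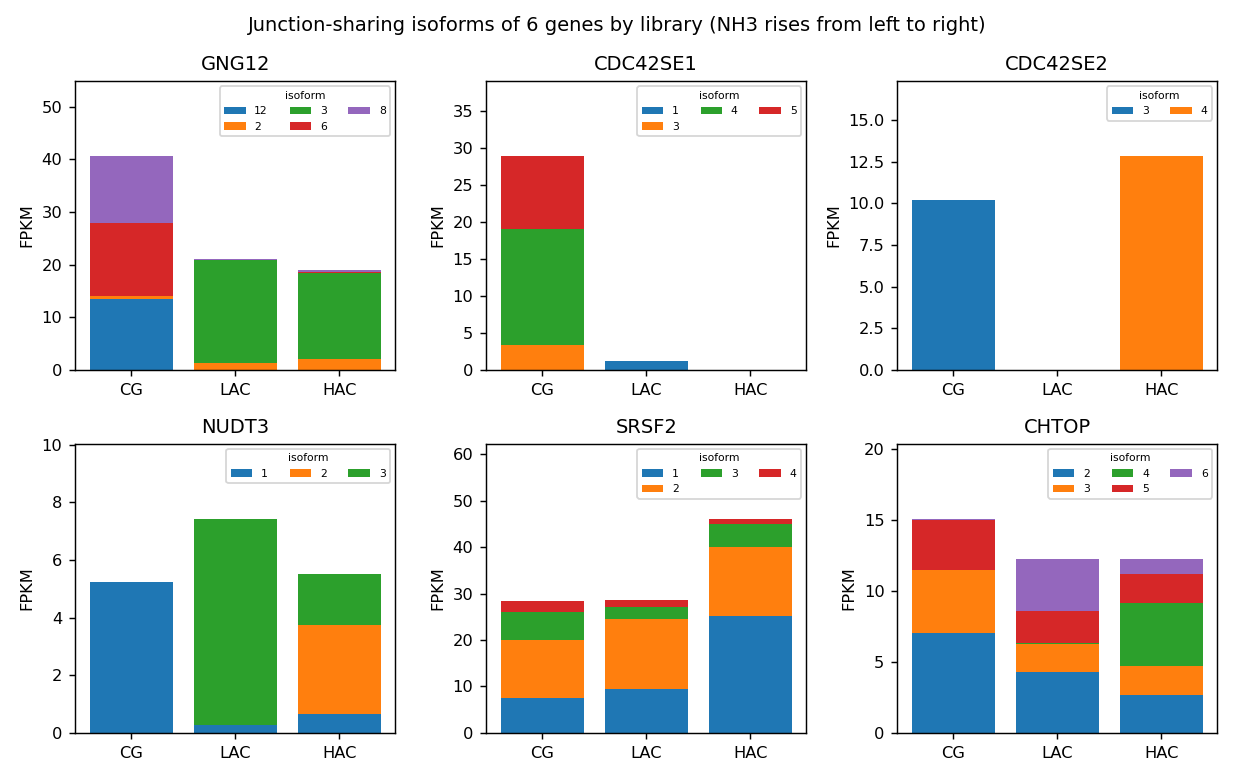
Stacked FPKM of the junction-sharing isoforms of 6 genes (y axis, scales differ) in CG, LAC and HAC (x axis), each colour 1 isoform named by the last part of its transcript number. At GNG12 isoforms 6, 8 and 12 fill the bar of CG and isoform 3 those of LAC and HAC, and at NUDT3 the main isoform is another one in each library.

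Among all messenger gene rows, 414 of 20008 (2.07%) hosted a junction-sharing isoform, and among the measured ones 409 of 12549 (3.26%). Lists of this size hold few hosts or none at either share. None of the 49 oocyte genes in the table, such as GDF9 and BMP15, had a junction-sharing isoform, and of 38 cumulus and granulosa genes FDX1 did, a ferredoxin of steroid synthesis with 2 isoforms. The first was at 1.75 FPKM in CG, 3.64 FPKM in LAC and 1.90 FPKM in HAC, and the second 1.07, 2.89 and 1.44 FPKM, all within the rule. Genes of ammonia, glutamine and urea metabolism, 31 in the table, had 0 such isoforms, where the share over all rows gives less than 1, and 0 were found in the lists of theca and stroma, endothelium and blood, epithelium, and small nucleolar RNA hosts. In all, 99 of the 743 isoforms fell in any of the 21 lists. Among these, 14 were higher and 21 lower in LAC than in CG, and 15 higher and 12 lower in HAC than in CG. The 99 include some isoforms too low to be tested. Over all isoforms tested, 11.7% were higher and 25.8% lower in LAC, and 16.9% and 13.1% in HAC.

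The remaining lists were small. Over all isoforms 11.7% were higher and 25.8% lower in LAC than in CG. Zinc finger hosts had 2 higher and 1 lower of 6 in LAC against CG, with ZNF593 at 5.85, 5.74 and 7.16 FPKM in CG, LAC and HAC. At ZC3H4 isoform MSTRG.23715.2 had 3.51 FPKM in LAC and 0 in CG, and MSTRG.23715.4 was listed at 0 in LAC, against 3.27 FPKM in CG. Hosts with the SLC prefix, among them SLC2A4RG, which is no carrier, had 1 higher and 2 lower of 8. SLC25A16, a mitochondrial carrier, stood at 8.44 FPKM in CG, 3.80 FPKM in LAC and 6.30 FPKM in HAC, within the rule. Of 3 DNA repair and replication isoforms, that of POLE4 alone was lower in LAC. Of 3 microtubule and 3 kinase hosts, with MAP3K13 in both lists, CEP126, a centrosomal protein, was higher in LAC than in CG, with 0.27, 2.10 and 0 FPKM in CG, LAC and HAC, and PRKDC, the DNA-dependent protein kinase, lower, with 2.34, 0.32 and 1.11 FPKM. Both calls were lost with a pseudocount of 5, at 0.43 for CEP126 and -0.46 for PRKDC. The SETD4 isoforms, of the chromatin list, lay within the rule.

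The isoforms nearest to each side of the size rule were low in level. Some abundant ones also lay close to it, such as PFN1 at 1.03 in HAC against CG. In LAC against CG the nearest called ones were MSTRG.25606.8 of LOC100355679, with 2.27 FPKM in LAC and 0.63 FPKM in CG, and that of LOC108176108, listed at 0 in LAC and at 1.00 FPKM in CG. Just short of it were LOC103350594, with 3.20 FPKM in LAC and 1.12 FPKM in CG, and LOC100358304, with 1.26 FPKM in LAC and 3.51 FPKM in CG. In HAC against CG, ORC1, with 1.67 FPKM in HAC and 0.33 FPKM in CG, was just called, and ANKRD37, with 2.36 FPKM in HAC and 0.68 FPKM in CG, was not. In HAC against LAC, DUSP11, with 0.85 FPKM in HAC and 2.71 FPKM in LAC, was just called, and RNF149, with 1.46 FPKM in HAC and 3.90 FPKM in LAC, was not.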

How the data were processed

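The deposited FPKM and coverage (a signal of mean read depth) of long non-coding transcripts were used as the authors gave them, per the file headers, with their CPC and CNCI scores. Estimated counts come from the deposited gene table. Reads were processed with fastp and HISAT2 on OryCun2.0, per the submitters' processing notes; the assembler is not named there. Transcripts with class code j were the members. A deposited count equals coverage times length divided by 75, and reads have 150 bases, so a count is about 0.5 reads. Shares are coverage times length over the locus count, which was scaled to CPM by its total (68523767 in LAC, 78461882 in CG). Differences are on log2(value + 1), which understates low levels. Fold values are FPKM ratios, with exact binomial 95% intervals on reads that cover counting error only. There is 1 library per group, so no test was made. The gene table under HAC repeats that of LAC, and its 2 columns were not used. The script was tested on simulated data.

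Named isoforms are, in each direction of each comparison, the 8 that differed most at 5 FPKM or more with a gene symbol, the 12 most abundant, up to 4 per list, those of the 5 genes with most isoforms and those nearest the size rule; others named were chosen after their values were seen. Members and lists were chosen with earlier results of these data known. LOC names were looked up in RefSeq of assembly mOryCun1.1, which gave another symbol to 29 of 294. Values were computed in SciPy 1.17.1, numpy 2.4.6 and pandas 2.3.3 under Python 3.11.15.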

Additional observations from a re-analysis of the deposited data

How the results depend on the processing

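Directions of the counts held under every setting tried, with more isoforms lower than higher in LAC against CG, and more higher than lower in HAC against CG and against LAC; their numbers moved most with the pseudocount and the size rule. For LAC against CG, 76 were higher and 168 lower. With a pseudocount of 0.1, 124 were higher, and with one of 5, 20 were higher and 34 lower. At 5 FPKM or more in the higher library 29 were higher and 51 lower, with a size rule of 2, 26 and 50, and with 1 long non-coding transcript at the locus, 28 and 74. Summed per locus, 45 were higher. For HAC against CG, 113 were higher and 88 lower: 27 and 21 with the pseudocount of 5, 45 and 35 at 5 FPKM, 35 and 29 with the size rule of 2, 44 and 34 with 1 transcript at the locus, and 66 and 54 summed per locus. For HAC against LAC, 202 were higher and 86 lower: 138 lower with the pseudocount of 0.1, 47 and 16 with that of 5, 72 and 31 at 5 FPKM, 65 and 17 with the size rule of 2, and 91 and 33 with 1 transcript at the locus.

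CG stood apart in 23.2% of isoforms with a range of at least 1, and in 16.6% summed per locus, 30.9% with the size rule of 2 and 17.9% with 1 transcript at the locus; LAC did in 42.3% and, summed per locus, 49.8%. The median share in CG was 19.5%, and 15.6% at loci with at least 100 counts in both libraries. Spearman's rho was 0.55 for the whole locus and 0.04 without the isoform's own part. Except where the setting itself leaves fewer transcripts, the cause was not tested. Median-of-ratios factors over all long non-coding transcripts (log2 of -0.16 in CG, 0.29 in LAC and -0.09 in HAC) gave 59 higher and 203 lower for LAC against CG, 233 higher and 62 lower for HAC against LAC. Of 690 values for 138 calls of named isoforms, 611 stayed past the size rule, 79 did not, 53 of them with the pseudocount of 5, and 0 changed sign.

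No paired analysis was possible because each group has 1 library. The split of reads among overlapping isoforms, read depth and library labels limit every value.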
